A study of Mus musculus with 30 samples.

Results

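The 45 probe sets described here read above the detection floor of the mouse liver array throughout and well above it in vehicle. They stood at 50% or less of vehicle under every agonist of the study at both times, where some of them came near the floor. The members are probe sets, the groups of short oligonucleotides with which the array reads one transcript. They were chosen by the measured intensities: a probe set had to read above 50, the lowest value of the deposited table, on all 30 arrays, had to average at least 200 in both vehicle groups, and had to have a group mean of at most 0.5 times that of the vehicle of the same time in all 6 agonist groups. Of the 12488 probe sets in the table, 66 were controls and 12422 were not. Among the non-controls 4100 read above the floor on all arrays, 2507 of those also met the level in vehicle (called the eligible probe sets here), and 45 met the ratios. Probe sets 94056_AT and 94057_G_AT were left out by name, and neither would have met the ratios. For scale, 46 eligible probe sets were at 2 times vehicle or more in all 6 groups.

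The study gave male C57Bl/6 mice 1 of 3 agonists of the peroxisome proliferator-activated receptor alpha (PPAR-alpha), and read total liver RNA on 1 array per mouse. The CP-775146 groups held 4 mice at 24 h and 2 mice at 5 days, the CP-868388 groups 4 mice at each time, the CP-865520 groups 4 mice at each time, and the vehicle groups, which received water, 4 mice at each time. Each agonist was given at 1 mg/kg per day for 24 h or for 5 days. All groups share strain, sex and tissue, and the sources used here do not give the age of the mice, the route or the hour of sampling. The compounds are known here by their code names.

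PPAR-alpha is a nuclear receptor that is abundant in hepatocytes, is switched on by fatty acids and by drugs such as fibrates, and binds DNA as a pair with the retinoid X receptor. In rodent liver it is best known for raising the genes of fatty acid uptake, of mitochondrial and peroxisomal oxidation and of ketone body production. The same receptor is known to lower other liver transcripts, in part by restraining inflammatory transcription factors such as NF-kappaB and AP-1, and agonists are known to lower transcripts of the acute phase response and of amino acid breakdown in rodents. None of the tables used here pairs this array's probe sets with genes, so the members are given by their identifiers, no role is given to any of them, and neither the pathway lists nor the liver and other cell type markers chosen for this work were analysed here. In whole liver, fewer cells of a type and less RNA per cell cannot be told apart.

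Intensities in the table ranged from 50 to 29064, and 50.3% of all values sat at 50. Each array averaged between 314 and 318, with 5600 to 6741 probe sets above the floor, and no arrays held identical values. The control probe sets for Gapdh, whose 5′ to 3′ ratio falls with RNA degradation or poor labelling, were lowest for CP-868388 at 24 h, where the log2 ratio averaged -0.36 ± 0.23 (SD, n = 4), against 0.02 ± 0.11 (SD, n = 4) in vehicle at 24 h. The pyruvate carboxylase controls gave -2.76 ± 0.73 under CP-868388 at 24 h, against -1.39 ± 0.16 in vehicle at 24 h. The actin controls ordered the groups differently: their log2 ratio averaged -1.14 ± 0.21 under CP-868388 at 24 h, against -0.61 ± 0.12 in vehicle at 24 h (SD, n = 4 each). It averaged -0.79 ± 0.02 with CP-775146 and -0.88 ± 0.40 with CP-865520 at 24 h (SD, n = 4 each). The actin ratio at 5 days averaged -1.08 ± 0.21 with CP-775146 (SD, n = 2), -0.97 ± 0.12 with CP-868388 and -1.29 ± 0.25 with CP-865520, the lowest of the 8 groups, against -0.80 ± 0.18 in vehicle (SD, n = 4 each). Arrays 1 and 3 of CP-868388 at 24 h, at -0.55 each, and array 4 of CP-865520 at 24 h, at -0.45, were the 3 arrays under -0.4 on the Gapdh ratio. For the comparisons that use these arrays, the counts of members called are given with and without them, and again with a covariate that joins the 3 pairs of controls.

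**Figure D1:**
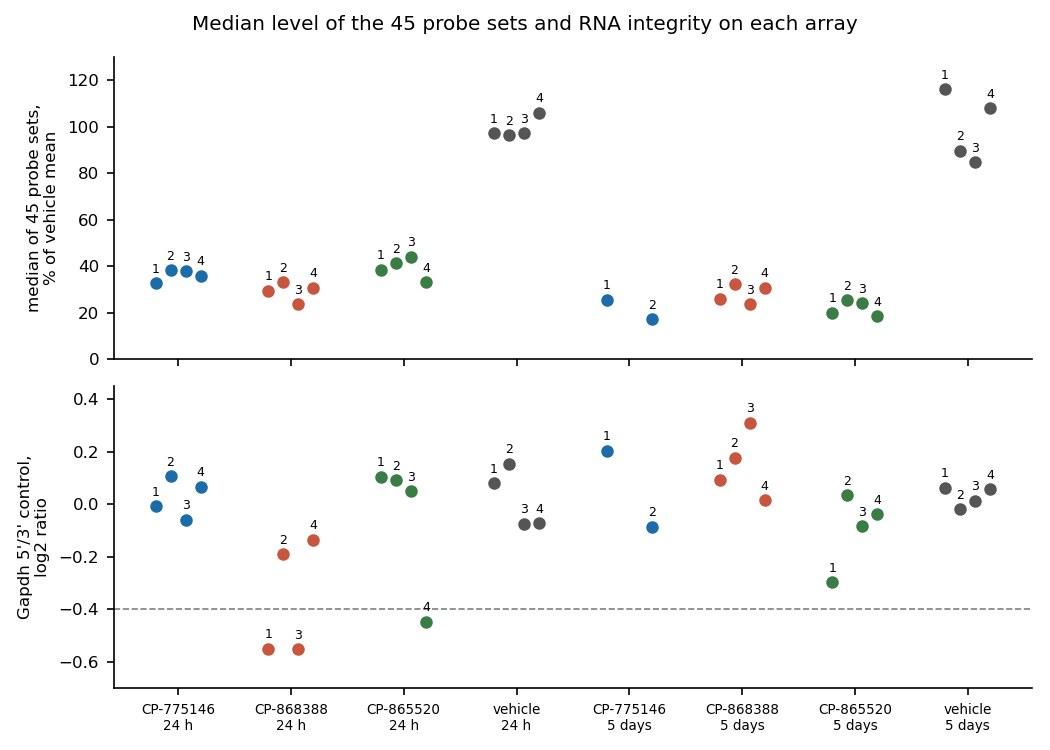
Upper panel, the median over the 45 probe sets on each array, each probe set as a percentage of the mean of the vehicle of the same time; lower panel, the Gapdh control's 5′ to 3′ ratio on the log2 scale on the same arrays, with a dashed line at -0.4. Points are arrays labelled with their replicate number; agonist arrays lie between 17.1% and 44.1%, vehicle arrays between 84.8% and 116%, and arrays 1 and 3 of CP-868388 and array 4 of CP-865520 at 24 h lie below the line.

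The median member stood at 37.6% of vehicle with CP-775146, 29.0% with CP-868388 and 40.3% with CP-865520 at 24 h. At 5 days the medians were 20.3% with CP-775146, 29.0% with CP-868388 and 22.6% with CP-865520. Over the 2507 eligible probe sets the medians were 96.6%, 89.4% and 99.8% at 24 h and 84.5%, 92.2% and 88.5% at 5 days, in the same order of compounds. These ratios chose the members and are given as a description, with no test.

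On single arrays the members were separated from vehicle almost throughout. Every array of CP-775146 at 24 h read below every vehicle array for 44 of the 45 members (22.2% of eligible probe sets did so); for CP-868388 at 24 h the count was 44 (33.9%) and for CP-865520 at 24 h it was 45 (19.6%). At 5 days the counts were 44 for CP-775146 (41.4% of eligible probe sets), 45 for CP-868388 (27.8%) and 45 for CP-865520 (34.1%). The exceptions were 97197_R_AT under CP-775146 and 92898_AT under CP-868388 at 24 h, and 160306_AT under CP-775146 at 5 days. The share of eligible probe sets at or below 50% of vehicle was 3.55% for CP-775146, 9.05% for CP-868388 and 3.47% for CP-865520 at 24 h, and 14.6%, 7.38% and 11.4% at 5 days. Since the rule used these comparisons, nothing is read from these counts.

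Members covered a wide range of signal. Their group means had a median of 453 with CP-775146, 463 with CP-868388 and 529 with CP-865520 at 24 h, against 1612 in vehicle. At 5 days the medians were 246 with CP-775146, 355 with CP-868388 and 263 with CP-865520, against 1306 in vehicle. The means of 5 members under CP-775146 and of 1 under CP-865520 were below 100 at 5 days, where log2(intensity + 50) understates a change. Intensities of different probe sets depend on their oligonucleotides and are not set against each other here.

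**Figure D2:**
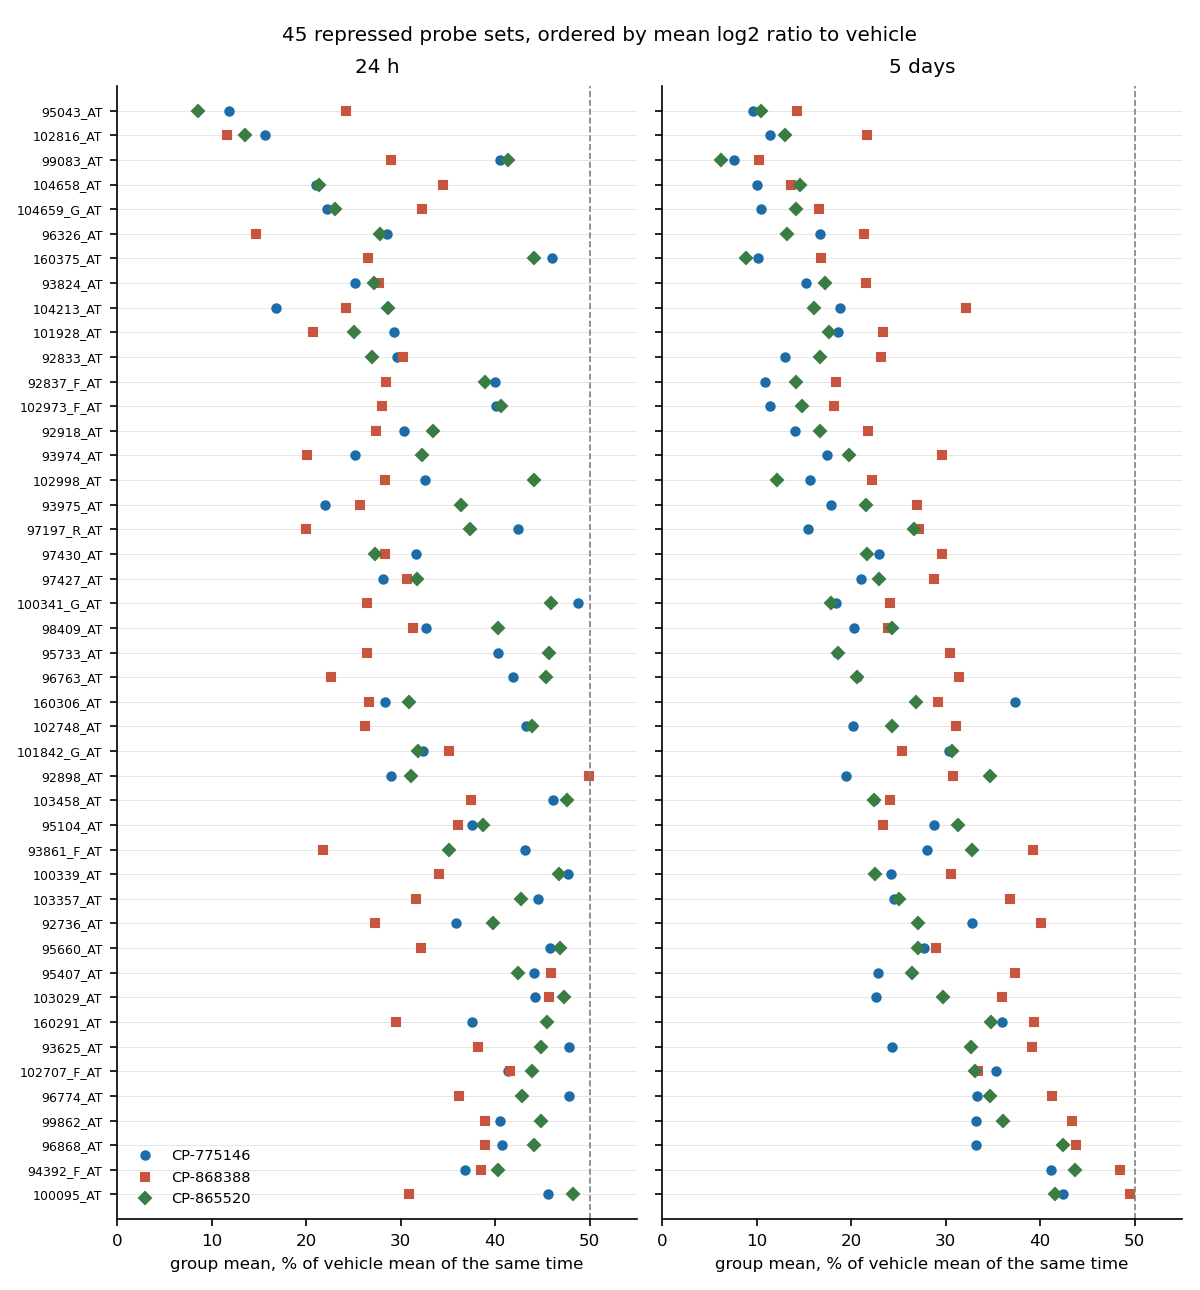
Group mean of each of the 45 probe sets as a percentage of the vehicle mean of the same time (x axis) at 24 h (left) and 5 days (right), 1 row per probe set in order of its mean log2 ratio, with a marker per compound; the dashed line is the 50% limit of the rule. At 24 h most squares (CP-868388) lie left of the other markers, with 95043_AT as an exception, and at 5 days 38 of 45 squares lie right of them.

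The limit of 50% cut through a continuous run of values. The members nearest to it were 92898_AT, whose highest ratio was 49.97% of vehicle (CP-868388 at 24 h), 100095_AT at 49.5% (CP-868388 at 5 days), 100341_G_AT at 48.8% (CP-775146 at 24 h) and 94392_F_AT at 48.5% (CP-868388 at 5 days). Just outside it were 94563_AT at 50.4%, 96831_AT at 50.4%, 100596_AT at 50.5% and 96346_AT at 50.8%. Leaving out array 4 of vehicle at 24 h put 92898_AT at 64.3% of vehicle under CP-868388 at 24 h, and 41 of the 45 members still met the rule. The members lost then were 92898_AT, 93861_F_AT, 103458_AT and 160291_AT.

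The lowest of all by mean log2 ratio over the 6 comparisons was 95043_AT, at -3.02. Intensities of 95043_AT at 24 h were 329, 269, 192 and 235 with CP-775146, 584, 443, 821 and 253 with CP-868388 and 173, 166, 206 and 196 with CP-865520, against 1975, 1971, 1640 and 3073 with vehicle. The 95043_AT arrays at 5 days gave 172 and 179 for CP-775146, 383, 238, 215 and 203 for CP-868388 and 197, 161, 199 and 206 for CP-865520, against 2134, 1737, 1383 and 2026 for vehicle. Its means were 11.8% of vehicle with CP-775146, 24.3% with CP-868388 and 8.56% with CP-865520 at 24 h, and 9.64%, 14.3% and 10.5% at 5 days, and the vehicle arrays lay far above all agonist arrays at both times. The 24 h values of CP-868388 were scattered over a range that reached above those of the other compounds, with array 4 at 253 among them.

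In 95043_AT CP-868388 had the highest mean of the compounds at 24 h, whereas it had the lowest in 30 of the 45 members. CP-868388 minus CP-775146 at 24 h was 0.83 (SE 0.23, adjusted p = 0.016) and CP-868388 minus CP-865520 at 24 h was 1.19 (SE 0.23, adjusted p = 0.000826), on the scale of log2(intensity + 50), from a limma fit over all 8 groups. It was the only member called higher under CP-868388 in either comparison. The difference from CP-865520 was lost without the 3 low-ratio arrays and in a fit of the compared groups alone; the difference from CP-775146 was lost there too, and with an integrity covariate, and without array 3 of CP-775146 or array 1 or 3 of CP-868388 at 24 h (adjusted p up to 0.578). At 5 days the CP-868388 arrays overlapped with the CP-865520 arrays, and no difference was called.

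Next came 102816_AT, with a mean log2 ratio of -2.83. At 24 h 102816_AT read 120, 202, 181 and 222 with CP-775146, 162, 158, 85 and 133 with CP-868388 and 111, 183, 188 and 147 with CP-865520, against 1232, 1097, 1182 and 1132 in vehicle. Intensities of 102816_AT at 5 days were 117 and 82 with CP-775146, 206, 169, 214 and 166 with CP-868388 and 132, 86, 151 and 83 with CP-865520, against 902, 723, 829 and 1029 with vehicle. At 24 h the 3 compounds overlapped and stood at 15.6%, 11.6% and 13.5% of vehicle for CP-775146, CP-868388 and CP-865520. At 5 days the 4 CP-868388 arrays lay above all arrays of the other compounds, at 21.7% of vehicle, against 11.4% for CP-775146 and 12.98% for CP-865520.

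Probe set 99083_AT had a moderate ratio at 24 h and the lowest of any member at 5 days. The 99083_AT arrays at 24 h gave 1827, 2589, 2597 and 2308 for CP-775146, 1899, 1628, 1175 and 1972 for CP-868388 and 1984, 2674, 2420 and 2440 for CP-865520, against 6196, 6161, 5719 and 4944 for vehicle. At 5 days 99083_AT read 436 and 382 with CP-775146, 513, 577, 445 and 654 with CP-868388 and 304, 434, 414 and 171 with CP-865520, against 5663, 4801, 5108 and 5828 in vehicle. The vehicle values at the 2 times overlapped, while under each compound every 5-day array was below every 24 h array. Its means were 40.5% of vehicle with CP-775146, 29.0% with CP-868388 and 41.3% with CP-865520 at 24 h, and 7.64%, 10.2% and 6.18% at 5 days.

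The closely numbered probe sets 104658_AT and 104659_G_AT followed each other. Intensities of 104658_AT at 24 h were 305, 317, 371 and 365 with CP-775146, 449, 587, 710 and 476 with CP-868388 and 428, 344, 328 and 275 with CP-865520, against 1449, 1114, 1162 and 2722 with vehicle. The 104658_AT arrays at 5 days gave 128 and 124 for CP-775146, 159, 189, 136 and 201 for CP-868388 and 135, 267, 209 and 123 for CP-865520, against 1952, 1139, 785 and 1147 for vehicle. The vehicle arrays were spread widely, from 1114 to 2722 at 24 h and from 785 to 1952 at 5 days, yet no agonist array reached them. At 24 h 104659_G_AT read 233, 259, 219 and 274 with CP-775146, 339, 381, 409 and 302 with CP-868388 and 312, 280, 234 and 196 with CP-865520, against 1009, 920, 749 and 1760 in vehicle. Intensities of 104659_G_AT at 5 days were 116 and 78 with CP-775146, 143, 149, 135 and 191 with CP-868388 and 83, 198, 149 and 96 with CP-865520, against 1325, 906, 722 and 771 with vehicle. Deviations of the 2 probe sets from their group means had a correlation of 0.89 over the 30 arrays, the highest of the 990 pairs of members, and all arrays are shared between them. Without array 4 of vehicle at 24 h, the high array in both, 104658_AT under CP-868388 at 24 h would stand at 44.7% of vehicle in place of 34.5%. Neither was called in a comparison between compounds or times.

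Probe set 96326_AT was lowest under CP-868388 at 24 h. The 96326_AT arrays at 24 h gave 1119, 1749, 1403 and 1651 for CP-775146, 625, 972, 515 and 943 for CP-868388 and 1283, 1144, 2423 and 920 for CP-865520, against 5044, 6128, 4216 and 5375 for vehicle. At 5 days 96326_AT read 671 and 360 with CP-775146, 576, 590, 553 and 926 with CP-868388 and 270, 622, 496 and 249 with CP-865520, against 4245, 2527, 2153 and 3459 in vehicle. At 24 h the CP-868388 arrays lay between 515 and 972, with array 4 of CP-865520 at 920 inside that range. At 5 days all compounds overlapped, and vehicle averaged 3096 ± 943, against 5191 ± 792 at 24 h (SD, n = 4 each), a difference that did not pass the test. The 24 h difference of CP-868388 from CP-775146 was -0.94 (SE 0.29, adjusted p = 0.0272), and that from CP-865520 was -0.83 (SE 0.29, adjusted p = 0.0338). Each was lost in 9 of 19 alternatives (adjusted p up to 0.86 and 0.62), among them the integrity covariate and the fit without the 3 low-ratio arrays.

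Probe set 160375_AT stood at 26.6% to 46.1% of vehicle at 24 h, and its ratios were lower at 5 days. Intensities of 160375_AT at 24 h were 4002, 4750, 4223 and 3554 with CP-775146, 2555, 2427, 1165 and 3387 with CP-868388 and 3192, 4056, 5101 and 3468 with CP-865520, against 9724, 9319, 9272 and 7568 with vehicle. The 160375_AT arrays at 5 days gave 824 and 839 for CP-775146, 1211, 1326, 1201 and 1752 for CP-868388 and 816, 531, 782 and 791 for CP-865520, against 7761, 8521, 7787 and 8690 for vehicle. At 24 h CP-868388 read 3387 or below, while CP-775146 and CP-865520 read 3192 or above. At 5 days CP-868388 was the highest of the agonists on every array, at 16.8% of vehicle, against 10.2% for CP-775146 and 8.91% for CP-865520.

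Another 3 of the deepest members were called in no comparison between compounds at 1 time. At 24 h 93824_AT read 2174, 2584, 2762 and 2503 with CP-775146, 2815, 2867, 2566 and 2765 with CP-868388 and 2883, 1944, 3511 and 2458 with CP-865520, against 10419, 10229, 9152 and 9973 in vehicle. Intensities of 93824_AT at 5 days were 1801 and 1410 with CP-775146, 1982, 2148, 1903 and 3058 with CP-868388 and 1665, 2586, 1840 and 1144 with CP-865520, against 11274, 10427, 9831 and 10572 with vehicle. In 93824_AT the 3 compounds overlapped at 24 h, at 25.2%, 27.7% and 27.1% of vehicle for CP-775146, CP-868388 and CP-865520. The 101928_AT arrays at 24 h gave 449, 966, 847 and 1055 for CP-775146, 496, 977, 343 and 539 for CP-868388 and 905, 539, 882 and 516 for CP-865520, against 2800, 2441, 3151 and 2947 for vehicle. At 5 days 101928_AT read 471 and 280 with CP-775146, 507, 537, 316 and 532 with CP-868388 and 373, 373, 383 and 300 with CP-865520, against 2440, 1639, 1967 and 2046 in vehicle. In 101928_AT all compounds overlapped at both times. Intensities of 104213_AT at 24 h were 166, 235, 165 and 155 with CP-775146, 315, 225, 314 and 189 with CP-868388 and 265, 244, 275 and 451 with CP-865520, against 1067, 1134, 1019 and 1082 with vehicle. The 104213_AT arrays at 5 days gave 178 and 314 for CP-775146, 335, 499, 408 and 440 for CP-868388 and 223, 196, 292 and 130 for CP-865520, against 963, 1316, 1663 and 1283 for vehicle. In 104213_AT the CP-868388 arrays at 5 days, at 335 to 499, lay above all arrays of the other agonists. The lowest adjusted p over the 6 compound pairs was 0.598 in 93824_AT, 0.2 in 101928_AT and 0.0983 in 104213_AT.

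**Figure D3:**
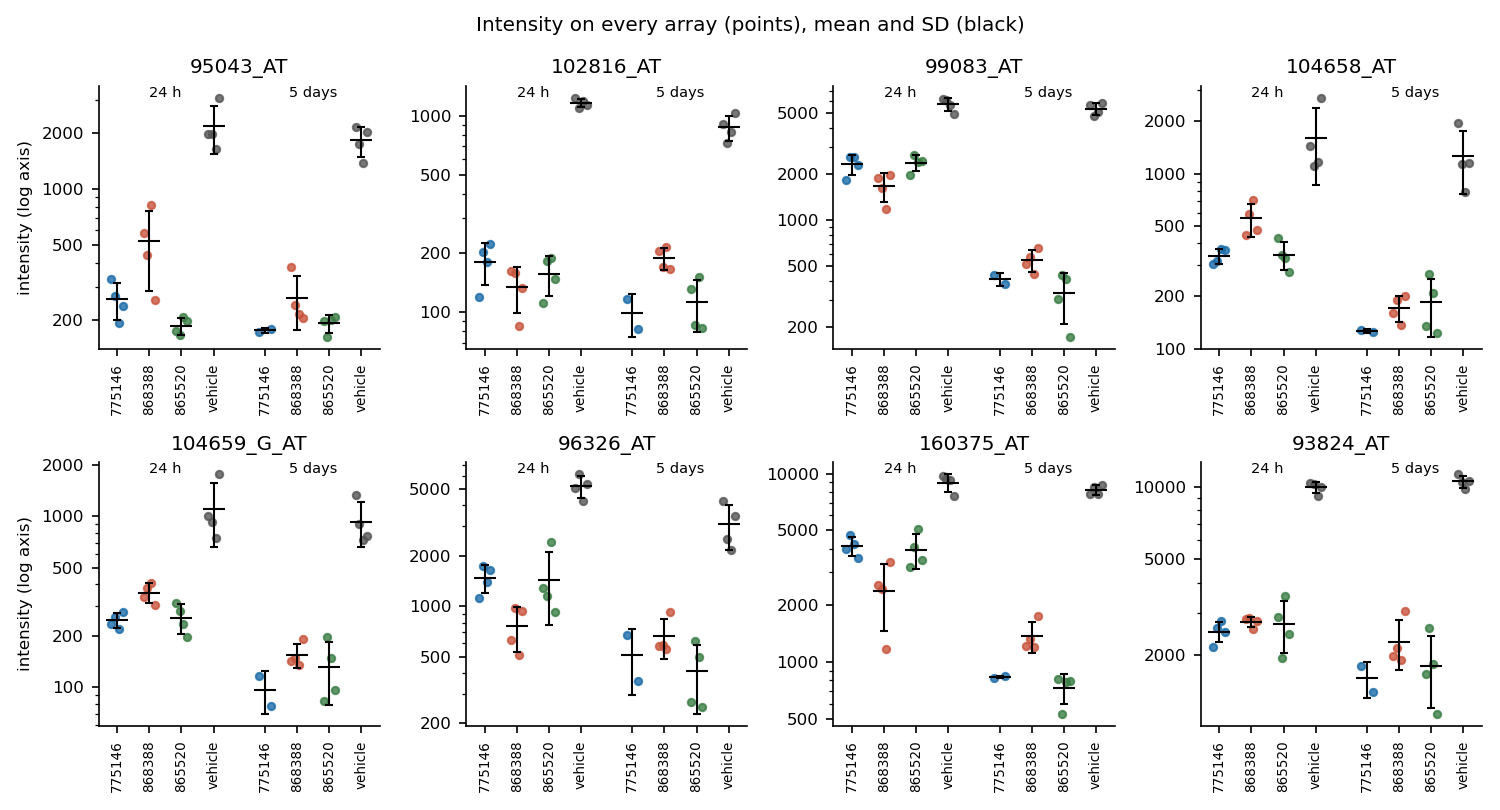
Intensity on every array (points, log axis) with the group mean and SD (black) for the 8 members with the lowest mean log2 ratio to vehicle, compounds by the digits of their code names, 24 h on the left and 5 days on the right of each panel; groups hold 4 arrays, CP-775146 at 5 days 2. Every vehicle array lies above every agonist array of its time in each panel; 99083_AT and 160375_AT drop further at 5 days; 95043_AT is highest under CP-868388 at 24 h.

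Most members were lower relative to vehicle at 5 days than at 24 h under CP-775146 and CP-865520. The ratio to vehicle was lower at 5 days in 42 of 45 members with CP-775146, in 23 with CP-868388 and in 42 with CP-865520. Of the eligible probe sets 61.6%, 43.8% and 57.8% were lower at 5 days, in the same order of compounds. The 5-day ratio was a median 0.605 times the 24 h ratio with CP-775146, 0.937 times with CP-868388 and 0.628 times with CP-865520, with 0.898, 1.04 and 0.916 over the eligible probe sets. The difference from vehicle at 5 days minus that at 24 h was tested for each compound with limma; the rule bounds both ratios but sets neither their order nor their difference. The 3 tests share the vehicle arrays.

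Under CP-775146 8 members were called lower at 5 days and none higher, where 2.64% of the 7963 probe sets tested were called lower and 2.17% higher. Under CP-868388 1 was called lower and none higher (1.03% and 2.51% of those tested), and under CP-865520 14 were called lower and none higher (9.97% and 7.33%). Over the eligible probe sets the shares called lower were 5.7%, 1.76% and 14.4%, and those called higher 3.87%, 2.75% and 13.4%, in the same order of compounds. The median log2 change of response over the members was -0.68, -0.03 and -0.52 for CP-775146, CP-868388 and CP-865520, against -0.06, 0.02 and -0.07 over all probe sets tested. At an unadjusted p under 0.05 there were 22, 10 and 21 members.

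The value for CP-868388 moved with the way the RNA integrity controls were handled. Their ratios were low in the CP-868388 group at 24 h. Those of actin and pyruvate carboxylase averaged below the vehicle of the same time in every agonist group, so integrity and compound cannot be told apart. The CP-868388 median was -0.27, with 34 of 45 members below 0, under the integrity covariate. It was -0.13, with 26 below 0, without the 3 arrays with a Gapdh ratio under -0.4. Over all arrays it was -0.03, with 23 below 0. For CP-775146 and CP-865520 the medians were -0.64 and -0.44 with the covariate, and -0.68 and -0.62 without the 3 arrays. All 8 calls for CP-775146 and the call for CP-868388 were kept in both settings, and 13 of the 14 for CP-865520 in each, 102707_F_AT being the call lost.

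The count for CP-775146 rests on 2 arrays at 5 days. Without array 1 at 5 days it was 14, without array 2 at 5 days 4, without array 3 of CP-775146 at 24 h 5, and without array 1 of vehicle at 5 days 5. The count for CP-865520 was 9 without array 3 at 24 h and 9 without array 4 at 5 days. The count for CP-868388 went to 2 or 3 without array 3 of CP-868388 at 24 h (2), array 4 of vehicle at 24 h (3) or array 1, 3 or 4 of vehicle at 5 days (2 each). Array 2 of CP-775146 at 5 days had the lowest median over the eligible probe sets, 78.4% of vehicle.

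**Figure D4:**
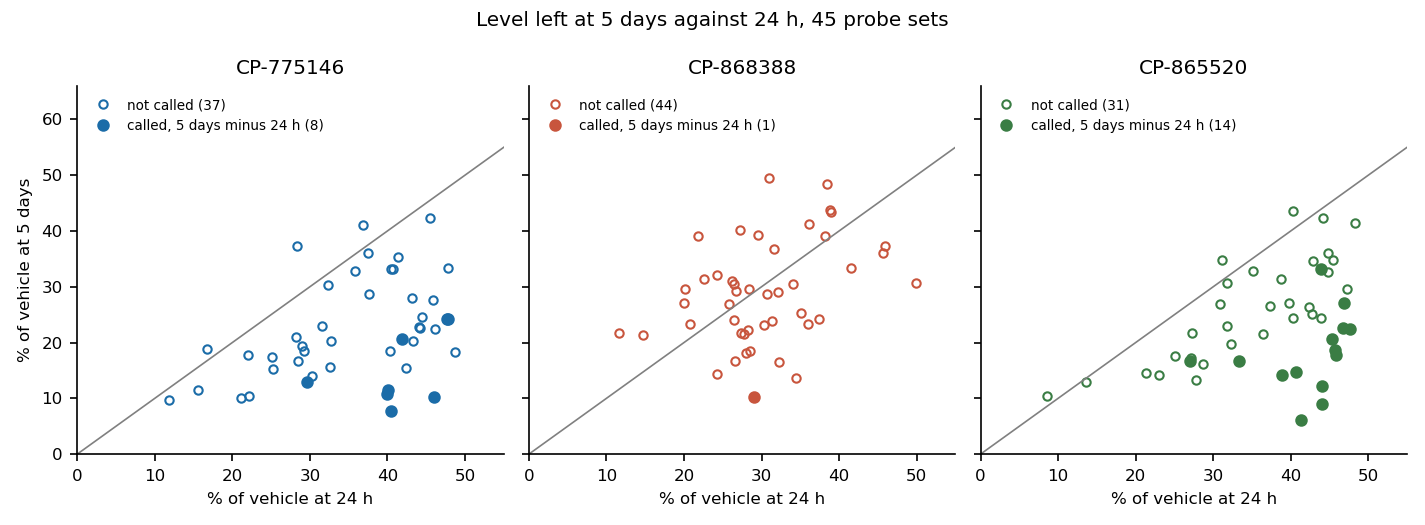
Group mean as a percentage of vehicle at 5 days (y axis) against that at 24 h (x axis) for the 45 probe sets under each compound; filled points passed the test of 5 days minus 24 h, and the line marks equal percentages. Under CP-775146 and CP-865520 42 of 45 points lie below the line; under CP-868388 23 do.

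The largest change of response was that of 99083_AT. It was -2.26 (SE 0.29, adjusted p = 2.96e-05) with CP-775146, -1.41 (SE 0.26, adjusted p = 0.00263) with CP-868388 and -2.63 (SE 0.26, adjusted p = 4.06e-07) with CP-865520. Probe set 160375_AT followed, with -2.11 (SE 0.33, adjusted p = 0.00026) under CP-775146 and -2.23 (SE 0.29, adjusted p = 2.28e-05) under CP-865520. All 5 calls held under each alternative tried and without any single array.

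Probe sets 92837_F_AT and 102973_F_AT had nearly the same profile. At 24 h 92837_F_AT read 1776, 1683, 1945 and 1567 with CP-775146, 1008, 1429, 1266 and 1264 with CP-868388 and 1656, 1735, 1956 and 1431 with CP-865520, against 4664, 4138, 4182 and 4445 in vehicle. Intensities of 92837_F_AT at 5 days were 471 and 270 with CP-775146, 568, 687, 549 and 708 with CP-868388 and 505, 597, 472 and 355 with CP-865520, against 4555, 2956, 2456 and 3684 with vehicle. Every agonist array at 5 days was below every agonist array at 24 h. The 102973_F_AT arrays at 24 h gave 1742, 1699, 1809 and 1862 for CP-775146, 1161, 1407, 1044 and 1368 for CP-868388 and 1940, 1930, 1984 and 1361 for CP-865520, against 4524, 4606, 4295 and 4338 for vehicle. At 5 days 102973_F_AT read 500 and 291 with CP-775146, 559, 525, 495 and 939 with CP-868388 and 644, 504, 556 and 349 with CP-865520, against 4335, 3082, 2519 and 3929 in vehicle. The change of response of 92837_F_AT was -1.75 (SE 0.26, adjusted p = 0.000168) under CP-775146 and -1.34 (SE 0.23, adjusted p = 0.000492) under CP-865520. For 102973_F_AT it was -1.69 (SE 0.30, adjusted p = 0.00138) and -1.35 (SE 0.27, adjusted p = 0.00173) for the same compounds, and these 4 calls held under each alternative. The letter F in an identifier of this array type marks a probe set that may match several related transcripts, so the values of these probe sets may join more than 1 transcript.

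Under CP-865520 102998_AT also changed by a large amount. Intensities of 102998_AT at 24 h were 1566, 2632, 2140 and 2929 with CP-775146, 2622, 1877, 1081 and 2475 with CP-868388 and 3302, 3335, 3137 and 2766 with CP-865520, against 7225, 6304, 6962 and 7971 with vehicle. The 102998_AT arrays at 5 days gave 902 and 533 for CP-775146, 556, 756, 843 and 1908 for CP-868388 and 549, 550, 693 and 430 for CP-865520, against 4848, 4989, 3927 and 4531 for vehicle. Its CP-865520 arrays fell to 430 to 693 at 5 days, against 2766 to 3335 at 24 h, a change of response of -1.78 (SE 0.38, adjusted p = 0.00321). Array 4 of CP-868388 at 5 days, at 1908, stood apart from the other 3 of its group.

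Probe set 92833_AT was called under 2 compounds. At 24 h 92833_AT read 416, 417, 440 and 537 with CP-775146, 450, 567, 362 and 471 with CP-868388 and 415, 379, 490 and 363 with CP-865520, against 1478, 1562, 1614 and 1454 in vehicle. Intensities of 92833_AT at 5 days were 204 and 150 with CP-775146, 298, 281, 287 and 397 with CP-868388 and 183, 260, 281 and 186 with CP-865520, against 1511, 1187, 1280 and 1488 with vehicle. All compounds overlapped at 24 h, at 27.0% to 30.3% of vehicle, and both CP-775146 arrays at 5 days were below all CP-868388 arrays. The change of response was -0.99 (SE 0.21, adjusted p = 0.0084) under CP-775146 and -0.58 (SE 0.19, adjusted p = 0.0347) under CP-865520; the second was lost without 1 array in 8 of 16 cases.

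The next members were also called in a comparison of compounds or of the vehicle groups. The 96763_AT arrays at 24 h gave 376, 369, 393 and 294 for CP-775146, 226, 188, 163 and 195 for CP-868388 and 357, 410, 401 and 382 for CP-865520, against 913, 899, 852 and 754 for vehicle. At 5 days 96763_AT read 148 and 68 with CP-775146, 171, 175, 127 and 184 with CP-868388 and 106, 121, 104 and 100 with CP-865520, against 569, 538, 425 and 559 in vehicle. In 96763_AT no CP-868388 array at 24 h overlapped with the other agonists, and the change of response was -0.75 (SE 0.20, adjusted p = 0.0306) under CP-775146 and -0.81 (SE 0.18, adjusted p = 0.00415) under CP-865520. Intensities of 95733_AT at 24 h were 306, 389, 430 and 473 with CP-775146, 283, 277, 201 and 288 with CP-868388 and 363, 540, 472 and 434 with CP-865520, against 975, 963, 973 and 1050 with vehicle. The 95733_AT arrays at 5 days gave 205 and 89 for CP-775146, 187, 234, 240 and 307 for CP-868388 and 146, 215, 123 and 107 for CP-865520, against 923, 659, 700 and 894 for vehicle. In 95733_AT the 4 CP-868388 arrays were the lowest at 24 h and 3 of 4 were the highest of the agonists at 5 days, and the change of response under CP-865520 was -1.05 (SE 0.25, adjusted p = 0.00669). At 24 h 100339_AT read 1475, 1700, 1851 and 1582 with CP-775146, 1196, 1247, 968 and 1306 with CP-868388 and 1599, 1662, 1894 and 1328 with CP-865520, against 3517, 3240, 3382 and 3712 in vehicle. Intensities of 100339_AT at 5 days were 861 and 583 with CP-775146, 923, 1015, 779 and 930 with CP-868388 and 526, 921, 766 and 479 with CP-865520, against 3448, 2649, 2640 and 3194 with vehicle. For 100339_AT the change was -0.94 (SE 0.24, adjusted p = 0.0267) under CP-775146 and -1.02 (SE 0.22, adjusted p = 0.00313) under CP-865520. The CP-775146 call of 100339_AT was lost without array 3 of CP-775146 at 24 h or array 1 of vehicle at 5 days, among other cases. That of 96763_AT was lost without array 2 or 3 of CP-775146 at 24 h, among other cases.

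The 100341_G_AT arrays at 24 h gave 1110, 1655, 1670 and 1707 for CP-775146, 787, 996, 393 and 1159 for CP-868388 and 1686, 1554, 1805 and 730 for CP-865520, against 3370, 3375, 2684 and 3162 for vehicle. At 5 days 100341_G_AT read 710 and 304 with CP-775146, 614, 681, 551 and 811 with CP-868388 and 359, 623, 606 and 378 with CP-865520, against 3227, 2291, 2486 and 3026 in vehicle. The CP-868388 arrays of 100341_G_AT at 24 h spread from 393 to 1159, with the lowest on array 3, and the change of response under CP-865520 was -1.23 (SE 0.40, adjusted p = 0.0334). Intensities of 103458_AT at 24 h were 928, 953, 1048 and 1125 with CP-775146, 738, 1115, 716 and 723 with CP-868388 and 1155, 1107, 1095 and 827 with CP-865520, against 2134, 2334, 1796 and 2527 with vehicle. The 103458_AT arrays at 5 days gave 399 and 252 for CP-775146, 305, 364, 282 and 452 for CP-868388 and 314, 385, 347 and 253 for CP-865520, against 1772, 1280, 948 and 1810 for vehicle. In 103458_AT the 5-day agonist arrays were at 452 or below, and the change under CP-865520 was -0.93 (SE 0.26, adjusted p = 0.016). At 24 h 95660_AT read 1080, 1191, 1211 and 1346 with CP-775146, 847, 1035, 525 and 975 with CP-868388 and 1280, 1243, 1395 and 1015 with CP-865520, against 2427, 3008, 2613 and 2485 in vehicle. Intensities of 95660_AT at 5 days were 806 and 552 with CP-775146, 667, 705, 628 and 844 with CP-868388 and 491, 992, 591 and 581 with CP-865520, against 2826, 2181, 1989 and 2813 with vehicle. That of 95660_AT under CP-865520 was -0.77 (SE 0.26, adjusted p = 0.0413). Without a single array, the calls of 100341_G_AT and 95660_AT were lost in 9 and 11 of 16 cases, and that of 103458_AT in none.

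The 92918_AT arrays at 24 h gave 184, 210, 221 and 184 for CP-775146, 190, 221, 123 and 188 for CP-868388 and 226, 246, 231 and 176 for CP-865520, against 679, 713, 540 and 702 for vehicle. At 5 days 92918_AT read 71 and 78 with CP-775146, 112, 90, 105 and 155 with CP-868388 and 94, 122, 84 and 55 with CP-865520, against 673, 517, 421 and 515 in vehicle. In 92918_AT the agonist arrays at 5 days, at 55 to 155, were near the floor, and the change under CP-865520 was -0.68 (SE 0.22, adjusted p = 0.0324). That call was lost without 1 array in 6 of 16 cases. Intensities of 93625_AT at 24 h were 344, 335, 384 and 395 with CP-775146, 234, 396, 233 and 301 with CP-868388 and 402, 332, 378 and 253 with CP-865520, against 682, 787, 791 and 787 with vehicle. The 93625_AT arrays at 5 days gave 219 and 172 for CP-775146, 327, 331, 297 and 304 for CP-868388 and 181, 286, 322 and 264 for CP-865520, against 912, 685, 848 and 775 for vehicle. In 93625_AT both CP-775146 arrays at 5 days were below all CP-868388 arrays, and the change under CP-775146 was -0.83 (SE 0.23, adjusted p = 0.0333). That call was lost without array 3 or 4 of CP-775146 at 24 h, among other cases. At 24 h 102707_F_AT read 1016, 853, 1018 and 1065 with CP-775146, 933, 995, 953 and 1091 with CP-868388 and 923, 1020, 1231 and 1026 with CP-865520, against 2544, 2157, 2444 and 2415 in vehicle. Intensities of 102707_F_AT at 5 days were 913 and 993 with CP-775146, 842, 993, 958 and 809 with CP-868388 and 876, 1050, 928 and 722 with CP-865520, against 2541, 2799, 2646 and 2808 with vehicle. The smallest called change, that of 102707_F_AT, was -0.40 (SE 0.14, adjusted p = 0.0461) under CP-865520 and was lost without 1 array in 11 of 16 cases. Vehicle averaged 2698 ± 129 at 5 days, against 2390 ± 165 at 24 h (SD, n = 4 each).

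At 24 h CP-868388 had the lowest mean in most members, as it had in most eligible probe sets. Of the 3 compounds CP-868388 had the lowest mean in 30 of 45 members, CP-775146 in 10 and CP-865520 in 5; over the eligible probe sets CP-868388 had the lowest mean in 52.1%. Against CP-775146, 12 members (26.7%) were called lower under CP-868388 (11.2% of all probe sets tested and 17.7% of the eligible ones) and 1 higher (5.19% and 11.5%). Against CP-865520, 13 (28.9%) were called lower, near the 26.2% of eligible probe sets (19.8% of all tested). In that comparison 1 was called higher (8.13% of all tested and 18.3% of the eligible ones). The median log2 difference over the members was -0.26 and -0.29, against -0.01 and -0.09 over all probe sets tested and -0.08 and -0.13 over the eligible ones. Between CP-775146 and CP-865520 limma called 0 members at 24 h (0.1% of probe sets were called lower and 0% higher under CP-775146), with 2 members at an unadjusted p under 0.05 and a lowest adjusted p of 0.14.

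RNA integrity differed between the same groups: the Gapdh ratio averaged -0.36 ± 0.23 under CP-868388, against 0.03 ± 0.07 under CP-775146 and -0.05 ± 0.27 under CP-865520 at 24 h (SD, n = 4 each). With a covariate from the 5′ to 3′ controls, 0 members were called against CP-775146 and 2 against CP-865520, and the median differences were 0.00 and -0.09. Without the 3 arrays with a Gapdh ratio under -0.4, 1 member, 96763_AT, was called in each comparison, with medians of -0.07 and -0.21; every other call between compounds at 24 h named here was lost without them. The 2 calls kept against CP-865520 with the covariate were 95043_AT and 96763_AT. With each array centred on its median, a scaling that put the median of all probe sets at 0.11 and 0.13 in these comparisons in place of -0.01 and -0.09, 6 of 9 calls against CP-775146 and 5 of 10 against CP-865520 were lower, against 12 of 13 and 13 of 14 as deposited.

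Single arrays moved the counts too. The 13 calls against CP-775146 became 3 without array 1 and 4 without array 3 of CP-868388, and 4, 4 and 6 without array 2, 3 or 4 of CP-775146. The 14 calls against CP-865520 became 9 without array 1 and 5 without array 3 of CP-868388, and 8, 7 and 6 without array 1, 2 or 3 of CP-865520. Members that stayed called without any single array were 96763_AT, 160375_AT and 93861_F_AT against CP-775146, and 96763_AT, 160375_AT, 95733_AT, 102748_AT and, in the higher direction, 95043_AT against CP-865520. The smallest adjusted p was that of 96763_AT, with -0.75 (SE 0.13, adjusted p = 0.0011) against CP-775146 and -0.85 (SE 0.13, adjusted p = 0.000134) against CP-865520; the second was kept in all 19 alternatives and the first in 18, the integrity covariate being the exception. Beside it stood 160375_AT with -0.87 (SE 0.21, adjusted p = 0.0067) against CP-775146 and -0.79 (SE 0.21, adjusted p = 0.00663) against CP-865520, both lost with the covariate, without the 3 arrays and in a fit of the compared groups alone.

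**Figure D5:**
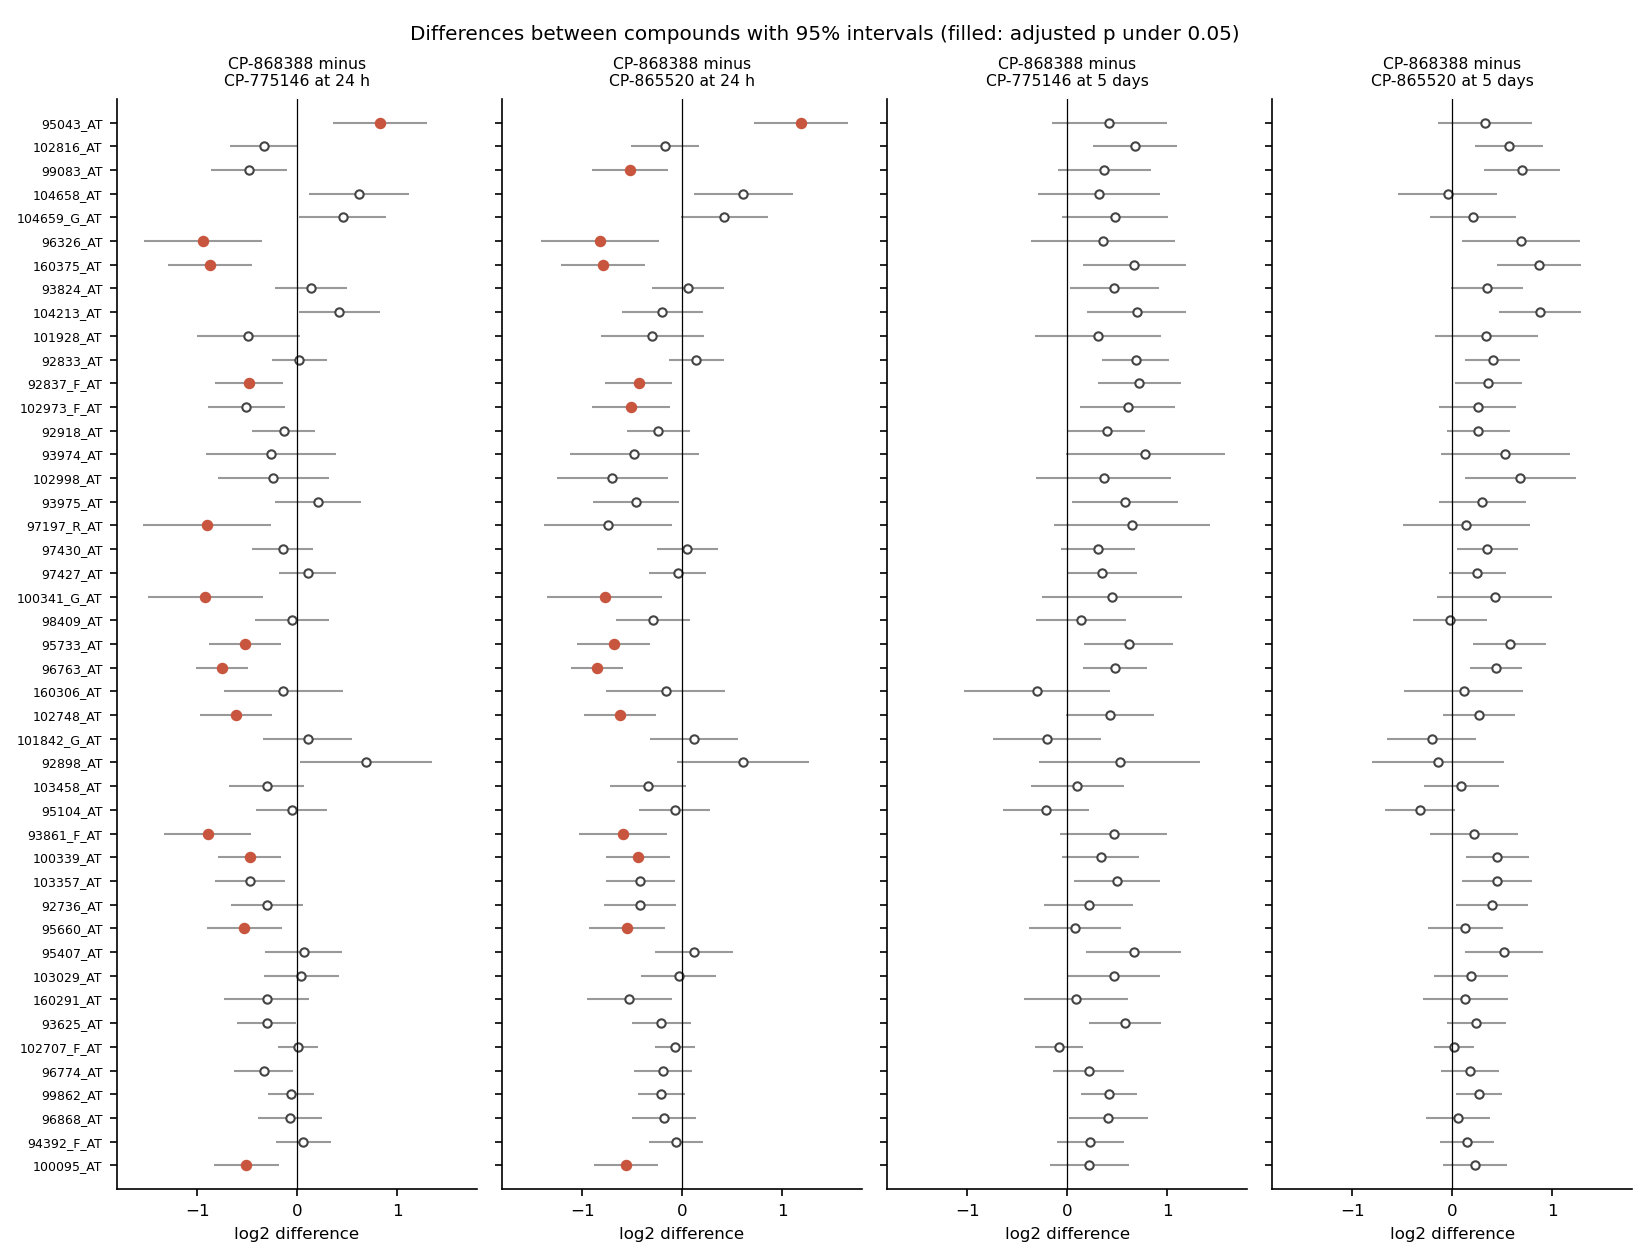
Log2 difference with its 95% interval for each of the 45 probe sets between CP-868388 and the other compounds, at 24 h (left pair) and 5 days (right pair), in the order of mean ratio to vehicle; filled points have an adjusted p under 0.05. At 24 h 12 and 13 filled points lie left of 0 and 1 right of it in each panel; at 5 days 41 and 40 of 45 points lie right of 0 and none is filled.

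The 102748_AT arrays at 24 h gave 272, 358, 401 and 291 for CP-775146, 139, 243, 221 and 198 for CP-868388 and 356, 345, 400 and 241 for CP-865520, against 820, 708, 782 and 746 for vehicle. At 5 days 102748_AT read 97 and 87 with CP-775146, 153, 152, 131 and 131 with CP-868388 and 105, 147, 116 and 75 with CP-865520, against 646, 356, 311 and 509 in vehicle. At 24 h the highest CP-868388 array of 102748_AT, 243, was just above the lowest CP-865520 array, 241, and below all CP-775146 arrays. The difference was -0.61 (SE 0.17, adjusted p = 0.0188) against CP-775146 and -0.62 (SE 0.17, adjusted p = 0.0104) against CP-865520. Intensities of 93861_F_AT at 24 h were 653, 730, 616 and 831 with CP-775146, 333, 402, 313 and 379 with CP-868388 and 672, 598, 658 and 371 with CP-865520, against 1314, 1606, 1252 and 2382 with vehicle. The 93861_F_AT arrays at 5 days gave 305 and 142 for CP-775146, 315, 286, 283 and 366 for CP-868388 and 254, 290, 291 and 212 for CP-865520, against 1132, 671, 526 and 861 for vehicle. In 93861_F_AT CP-868388 stood at 21.8% of vehicle at 24 h and CP-775146 at 43.2%, a difference of -0.89 (SE 0.21, adjusted p = 0.00676). Against CP-865520, whose array 4 at 371 lay inside the CP-868388 range, it was -0.59 (SE 0.21, adjusted p = 0.0395).

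At 24 h 100095_AT read 463, 627, 534 and 702 with CP-775146, 359, 442, 307 and 470 with CP-868388 and 802, 715, 500 and 446 with CP-865520, against 1148, 1210, 1342 and 1406 in vehicle. Intensities of 100095_AT at 5 days were 546 and 361 with CP-775146, 547, 536, 460 and 576 with CP-868388 and 449, 485, 431 and 413 with CP-865520, against 1318, 979, 949 and 1036 with vehicle. For 100095_AT the difference was -0.51 (SE 0.16, adjusted p = 0.0286) against CP-775146 and -0.56 (SE 0.16, adjusted p = 0.0102) against CP-865520. The 97197_R_AT arrays at 24 h gave 577, 423, 515 and 283 for CP-775146, 169, 251, 210 and 218 for CP-868388 and 378, 497, 447 and 258 for CP-865520, against 1156, 522, 1072 and 1487 for vehicle. At 5 days 97197_R_AT read 176 and 115 with CP-775146, 295, 304, 194 and 229 with CP-868388 and 128, 491, 210 and 173 with CP-865520, against 1298, 827, 510 and 1129 in vehicle. Probe set 97197_R_AT had a low vehicle array at 24 h, array 2 at 522, which lay below CP-775146 array 1 at 577. Its difference from CP-775146 at 24 h was -0.90 (SE 0.31, adjusted p = 0.0468), lost in 15 of 19 alternatives.

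The other called differences of CP-868388 from CP-775146 at 24 h were -0.92 (SE 0.28, adjusted p = 0.0264) for 100341_G_AT, -0.53 (SE 0.18, adjusted p = 0.0496) for 95660_AT and -0.52 (SE 0.18, adjusted p = 0.0436) for 95733_AT. Those of 92837_F_AT and 100339_AT were -0.48 (SE 0.16, adjusted p = 0.0462) and -0.47 (SE 0.15, adjusted p = 0.0365). Against CP-865520 they were -0.68 (SE 0.18, adjusted p = 0.0063) for 95733_AT, -0.78 (SE 0.28, adjusted p = 0.0404) for 100341_G_AT and -0.55 (SE 0.18, adjusted p = 0.0266) for 95660_AT. The remaining 4 were -0.52 (SE 0.18, adjusted p = 0.0384) for 99083_AT, -0.51 (SE 0.19, adjusted p = 0.0445) for 102973_F_AT, -0.44 (SE 0.15, adjusted p = 0.0348) for 100339_AT and -0.44 (SE 0.16, adjusted p = 0.049) for 92837_F_AT.

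At 5 days the order of the means was different, but no member passed a test between compounds. CP-868388 had the highest mean of the 3 compounds in 38 of 45 members (49.9% of eligible probe sets), and the lowest mean was that of CP-775146 in 26 (51.3%) and of CP-865520 in 17 (24.1%). CP-868388 minus CP-775146 was above 0 in 41 members and CP-868388 minus CP-865520 in 40, with medians of 0.42 and 0.27, against 0.03 and 0.00 over all probe sets tested. The differences were below 0 in 4 and 5 members, and in 32.8% and 42.4% of the eligible probe sets. With the integrity covariate these medians were 0.38 and 0.16. In limma 0 members were called against CP-775146 (0.0126% of probe sets tested higher and 0.0628% lower), 0 against CP-865520 (0.0251% higher and 0.0377% lower) and 0 between CP-775146 and CP-865520 (0.0251% higher and 0% lower). At an unadjusted p under 0.05 there were 17, 16 and 0 members, and the lowest adjusted p were 0.168 for 92833_AT, 0.0983 for 104213_AT and 0.966.

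The 95% intervals bound these differences. An interval lay within a 2-fold difference for 26 members against CP-775146, for 38 against CP-865520 and for 40 between CP-775146 and CP-865520. The largest differences were 0.78 in 93974_AT against CP-775146 and 0.88 in 104213_AT against CP-865520. Leaving out array 1 of CP-775146 gave 5 calls in the first comparison, and leaving out array 3 of CP-865520 gave 1 in the second. Over the eligible probe sets the median difference was 0.10 against CP-775146 and 0.03 against CP-865520.

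The change from 24 h to 5 days was compared directly between compounds, a test chosen after the data were seen, in which vehicle cancels. Against CP-775146, 13 members had a higher (less negative or positive) change under CP-868388 and none a lower one (7.2% of probe sets tested and 13.9% of eligible ones were higher, 2.29% and 5.23% lower). Against CP-865520, 17 were higher (13% and 21.1%) and none lower (5.79% and 12.8%). In the third pair, CP-775146 minus CP-865520, limma called 0 in either direction (0% each; 1 member at an unadjusted p under 0.05). Medians over the members were 0.55, 0.64 and -0.04, against 0.06, 0.09 and 0.00 over all probe sets tested. For CP-868388 minus CP-775146 and minus CP-865520 they were 0.31 and 0.19 with the integrity covariate, and 0.43 and 0.42 without the 3 arrays with a low Gapdh ratio.

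Against CP-775146 the largest of these differences was 1.55 (SE 0.49, adjusted p = 0.0465) in 97197_R_AT, lost in 16 of 25 alternatives. In 160375_AT it was 1.54 (SE 0.33, adjusted p = 0.0118) against CP-775146 and 1.66 (SE 0.29, adjusted p = 0.00118) against CP-865520, the largest there. Others were 1.51 (SE 0.41, adjusted p = 0.0133) in 96326_AT and 1.38 (SE 0.38, adjusted p = 0.0152) in 102998_AT, both against CP-865520. In 96763_AT the difference was 1.23 (SE 0.20, adjusted p = 0.00308) against CP-775146 and 1.29 (SE 0.18, adjusted p = 0.000555) against CP-865520, and the second was kept in all 27 alternatives. The tests include the CP-868388 arrays at 24 h: with the integrity covariate 0 and 2 members were called (104213_AT and 96763_AT), and without the 3 arrays 2 (160375_AT and 96763_AT) and 7 (those 2, 99083_AT, 95733_AT, 100339_AT, 102748_AT and 104213_AT). No call against CP-775146 held without every single array in turn, since without array 2 of CP-775146 at 5 days there were 0; without array 3 of CP-775146 at 24 h, array 3 of CP-868388 at 24 h or array 4 of CP-868388 at 5 days there were 8, 6 and 8. Against CP-865520 11 members stayed called without any single array, and without array 4 of CP-865520 at 5 days the count was 11.

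Against CP-775146 the other calls were 1.36 (SE 0.34, adjusted p = 0.0188) in 93861_F_AT, 1.20 (SE 0.26, adjusted p = 0.0118) in 92837_F_AT and 1.14 (SE 0.28, adjusted p = 0.0188) in 95733_AT. The rest, in 102973_F_AT, 102748_AT, 102816_AT, 103357_AT, 93625_AT, 100339_AT and 92833_AT, lay between 0.67 and 1.11. Against CP-865520 95733_AT had 1.26 (SE 0.25, adjusted p = 0.00229), 99083_AT 1.22 (SE 0.26, adjusted p = 0.004), 100341_G_AT 1.20 (SE 0.40, adjusted p = 0.0351) and 104213_AT 1.08 (SE 0.28, adjusted p = 0.0111). The rest, in 102748_AT, 100339_AT, 103357_AT, 92736_AT, 92837_F_AT, 100095_AT, 102973_F_AT, 102816_AT and 99862_AT, lay between 0.47 and 0.90.

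Probe sets 92736_AT and 99862_AT were called in this test alone. Intensities of 92736_AT at 24 h were 153, 195, 166 and 156 with CP-775146, 145, 122, 99 and 144 with CP-868388 and 200, 180, 170 and 194 with CP-865520, against 422, 501, 543 and 403 with vehicle. The 92736_AT arrays at 5 days gave 173 and 100 for CP-775146, 139, 215, 109 and 205 for CP-868388 and 103, 146, 121 and 80 for CP-865520, against 574, 345, 292 and 454 for vehicle. In 92736_AT CP-868388 stood at 27.3% of vehicle at 24 h and 40.1% at 5 days, and the difference in change from CP-865520 was 0.82 (SE 0.25, adjusted p = 0.025). At 24 h 99862_AT read 3778, 4269, 4115 and 4561 with CP-775146, 3590, 4512, 3729 and 4233 with CP-868388 and 4699, 4586, 4901 and 4315 with CP-865520, against 10751, 10749, 9816 and 9966 in vehicle. Intensities of 99862_AT at 5 days were 3558 and 2179 with CP-775146, 3312, 3727, 3966 and 4016 with CP-868388 and 3062, 3462, 3301 and 2654 with CP-865520, against 9624, 8261, 7901 and 8823 with vehicle. In 99862_AT that difference was 0.47 (SE 0.16, adjusted p = 0.0386).

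Vehicle livers themselves read lower at 5 days than at 24 h in 39 of 45 members, as in 61.6% of eligible probe sets. Their 5-day mean was a median 83.0% of the 24 h mean, while for the agonist groups that figure was 46.8% with CP-775146, 81.2% with CP-868388 and 55.3% with CP-865520. In limma 6 members (13.3%) fell in vehicle at 5 days relative to 24 h and none rose. Of all probe sets tested 11.5% were lower and 11.2% higher, so the share that fell was near that of all. The median over members was -0.26, against 0.00 over all probe sets tested and -0.08 over the eligible ones. The vehicle means are the denominators of the ratios that chose the members, so this test is not independent of the rule. Nothing about the members is read from it. Handling, day of sampling and length of dosing cannot be told apart between the vehicle groups.

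The strongest of the 6 was 93861_F_AT with -0.9999 (SE 0.21, adjusted p = 0.00183), followed by 102748_AT with -0.73 (SE 0.17, adjusted p = 0.00425) and 96763_AT with -0.66 (SE 0.13, adjusted p = 0.000767). The same difference was -0.62 (SE 0.18, adjusted p = 0.0179) in 103458_AT, -0.50 (SE 0.17, adjusted p = 0.0351) in 103357_AT and -0.42 (SE 0.14, adjusted p = 0.0362) in 96774_AT. Without array 2 of vehicle at 5 days 3 members were called, and without array 3 at 5 days 3; 96763_AT, 102748_AT and 93861_F_AT held without any single array. The 103357_AT arrays at 24 h gave 586, 702, 752 and 566 for CP-775146, 405, 530, 338 and 579 for CP-868388 and 639, 589, 719 and 554 for CP-865520, against 1544, 1381, 1528 and 1403 for vehicle. At 5 days 103357_AT read 318 and 184 with CP-775146, 341, 404, 246 and 513 with CP-868388 and 219, 291, 301 and 215 with CP-865520, against 1070, 882, 1005 and 1132 in vehicle. In 103357_AT all 4 vehicle arrays at 5 days were below all 4 at 24 h. Intensities of 96774_AT at 24 h were 224, 220, 258 and 205 with CP-775146, 194, 181, 117 and 194 with CP-868388 and 236, 202, 236 and 139 with CP-865520, against 470, 409, 495 and 525 with vehicle. The 96774_AT arrays at 5 days gave 124 and 106 for CP-775146, 126, 176, 125 and 143 for CP-868388 and 117, 125, 142 and 95 for CP-865520, against 410, 272, 322 and 377 for vehicle. In 96774_AT the highest vehicle array at 5 days, 410, was just above the lowest at 24 h, 409.

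The remaining 14 members were called in no comparison between compounds or times. Of these, 93974_AT, 93975_AT and 92898_AT share a high vehicle array. At 24 h 93974_AT read 564, 374, 355 and 353 with CP-775146, 356, 296, 329 and 336 with CP-868388 and 708, 737, 474 and 196 with CP-865520, against 1177, 1132, 1276 and 2964 in vehicle. Intensities of 93974_AT at 5 days were 532 and 217 with CP-775146, 683, 765, 567 and 525 with CP-868388 and 349, 354, 497 and 500 with CP-865520, against 3218, 1774, 1498 and 2095 with vehicle. Array 4 of vehicle at 24 h, at 2964, stood far above the other 3 vehicle arrays of that time. The 93975_AT arrays at 24 h gave 697, 521, 593 and 595 for CP-775146, 749, 615, 675 and 774 for CP-868388 and 1010, 1194, 768 and 1008 for CP-865520, against 2198, 1994, 2388 and 4345 for vehicle. At 5 days 93975_AT read 766 and 454 with CP-775146, 1030, 1136, 766 and 755 with CP-868388 and 632, 641, 939 and 730 with CP-865520, against 4871, 2916, 2611 and 3274 in vehicle. The closely numbered 93975_AT had the same high array, at 4345, and the deviations of the 2 probe sets from their group means had a correlation of 0.74 over the 30 arrays.

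Intensities of 92898_AT at 24 h were 702, 423, 674 and 427 with CP-775146, 733, 1009, 1503 and 600 with CP-868388 and 911, 496, 543 and 446 with CP-865520, against 1477, 1629, 1377 and 3212 with vehicle. The 92898_AT arrays at 5 days gave 275 and 174 for CP-775146, 214, 480, 273 and 453 for CP-868388 and 332, 677, 335 and 261 for CP-865520, against 1641, 1314, 753 and 914 for vehicle. In 92898_AT that array was again high, at 3212, and array 3 of CP-868388 at 24 h, at 1503, lay above vehicle arrays 1 and 3. At 24 h 160306_AT read 445, 438, 365 and 345 with CP-775146, 589, 345, 225 and 340 with CP-868388 and 289, 252, 519 and 679 with CP-865520, against 973, 1537, 1443 and 1671 in vehicle. Intensities of 160306_AT at 5 days were 410 and 623 with CP-775146, 359, 460, 440 and 356 with CP-868388 and 320, 311, 488 and 367 with CP-865520, against 595, 1591, 1481 and 1861 with vehicle. Array 1 of vehicle at 5 days, at 595, lay below array 2 of CP-775146 at 623 in 160306_AT, the only overlap at that time.

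97430_AT averaged 259.8 ± 22.2 with CP-775146, 233 ± 46.8 with CP-868388 and 224 ± 57.9 with CP-865520 at 24 h, against 822 ± 121 in vehicle (SD, n = 4 each). At 5 days 97430_AT averaged 156 ± 55.9 with CP-775146 (SD, n = 2), 202 ± 19.8 with CP-868388 and 148 ± 23.8 with CP-865520, against 682 ± 58.8 in vehicle (SD, n = 4 each). 97427_AT averaged 218 ± 50.4 with CP-775146, 238 ± 43.2 with CP-868388 and 246 ± 34.2 with CP-865520 at 24 h, against 774 ± 92.3 in vehicle (SD, n = 4 each). At 5 days 97427_AT averaged 128 ± 38.9 with CP-775146 (SD, n = 2), 175 ± 30.2 with CP-868388 and 139 ± 25.5 with CP-865520, against 607 ± 39.1 in vehicle (SD, n = 4 each). Those 2 members carry close identifiers and stood between 21.0% and 31.8% of vehicle in every agonist group, and their deviations correlated at 0.33. 98409_AT averaged 185 ± 33.8 with CP-775146, 177 ± 35.0 with CP-868388 and 228 ± 40.3 with CP-865520 at 24 h, against 566 ± 59.6 in vehicle (SD, n = 4 each). At 5 days 98409_AT averaged 86.5 ± 10.6 with CP-775146 (SD, n = 2), 102 ± 27.7 with CP-868388 and 104 ± 27.8 with CP-865520, against 426 ± 151 in vehicle (SD, n = 4 each). 101842_G_AT averaged 278 ± 73.8 with CP-775146, 302 ± 68.2 with CP-868388 and 274 ± 65.7 with CP-865520 at 24 h, against 860.5 ± 303 in vehicle (SD, n = 4 each). At 5 days 101842_G_AT averaged 184 ± 27.6 with CP-775146 (SD, n = 2), 154 ± 23.2 with CP-868388 and 186 ± 36.6 with CP-865520, against 606 ± 193 in vehicle (SD, n = 4 each). In 98409_AT and 101842_G_AT no agonist array reached a vehicle array of its time.

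95104_AT averaged 251 ± 55.7 with CP-775146, 240.5 ± 57.3 with CP-868388 and 259 ± 77.2 with CP-865520 at 24 h, against 668 ± 69.4 in vehicle (SD, n = 4 each). At 5 days 95104_AT averaged 162 ± 42.4 with CP-775146 (SD, n = 2), 132 ± 19.8 with CP-868388 and 177 ± 26.0 with CP-865520, against 564 ± 76.1 in vehicle (SD, n = 4 each). 95407_AT averaged 2015 ± 321 with CP-775146, 2097 ± 169 with CP-868388 and 1935 ± 252 with CP-865520 at 24 h, against 4568 ± 806 in vehicle (SD, n = 4 each). At 5 days 95407_AT averaged 974 ± 196 with CP-775146 (SD, n = 2), 1591 ± 349 with CP-868388 and 1127 ± 409.8 with CP-865520, against 4266 ± 418 in vehicle (SD, n = 4 each). In 95407_AT the 24 h means of the compounds were close, at 42.4% to 45.9% of vehicle. 103029_AT averaged 374 ± 35.2 with CP-775146, 387 ± 39.5 with CP-868388 and 400.5 ± 72.3 with CP-865520 at 24 h, against 847 ± 78.8 in vehicle (SD, n = 4 each). At 5 days 103029_AT averaged 148 ± 22.6 with CP-775146 (SD, n = 2), 235 ± 92.4 with CP-868388 and 194 ± 48.0 with CP-865520, against 653 ± 152 in vehicle (SD, n = 4 each). 160291_AT averaged 262 ± 33.5 with CP-775146, 206 ± 55.0 with CP-868388 and 318 ± 64.5 with CP-865520 at 24 h, against 699 ± 185 in vehicle (SD, n = 4 each). At 5 days 160291_AT averaged 162 ± 58.7 with CP-775146 (SD, n = 2), 178 ± 65.1 with CP-868388 and 157 ± 54.2 with CP-865520, against 452 ± 59.8 in vehicle (SD, n = 4 each). Without array 4 of vehicle at 24 h, 160291_AT stood at 52.1% of vehicle under CP-865520 at 24 h.

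96868_AT averaged 1233 ± 249 with CP-775146, 1178 ± 275 with CP-868388 and 1337 ± 273 with CP-865520 at 24 h, against 3029 ± 255 in vehicle (SD, n = 4 each). At 5 days 96868_AT averaged 770.5 ± 247 with CP-775146 (SD, n = 2), 1016 ± 21.3 with CP-868388 and 983 ± 169 with CP-865520, against 2320.2 ± 281 in vehicle (SD, n = 4 each). 94392_F_AT averaged 594 ± 98.2 with CP-775146, 621 ± 89.9 with CP-868388 and 651 ± 102 with CP-865520 at 24 h, against 1615 ± 272 in vehicle (SD, n = 4 each). At 5 days 94392_F_AT averaged 590.0 ± 119 with CP-775146 (SD, n = 2), 696 ± 49.8 with CP-868388 and 626 ± 83.1 with CP-865520, against 1436 ± 160.0 in vehicle (SD, n = 4 each). In 94392_F_AT the agonist groups kept 36.8% to 48.5% of vehicle, the shallowest decrease of the members beside 100095_AT.

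Members deviated together within groups. Over the 30 arrays the correlation between deviations from the group means had a median of 0.42 over the 990 pairs of members, and 0.06 over all pairs of eligible probe sets; all pairs share the same arrays, so this is a description. Pairs above 0.8 made up 1.41% of member pairs and 0.611% of eligible pairs. After the closely numbered 104658_AT and 104659_G_AT, the highest were 92833_AT with 96326_AT at 0.85 and 100341_G_AT with 95104_AT at 0.83. Of other closely numbered members, 100339_AT with 100341_G_AT had 0.81, and 92837_F_AT with 102973_F_AT, which are not close in number, 0.76.

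By the ending of their identifiers 36 of the 45 members were plain probe sets, as were 77.4% of all non-control probe sets, while 5 ended in F_AT (11.1%, against 8.65%), 3 in G_AT (6.67%, against 1.65%) and 1 in R_AT (2.22%, against 7.25%). By number 104659_G_AT stands 1 above the member 104658_AT, and 100341_G_AT stands 2 above the member 100339_AT. Whether such neighbours read the same transcript was not analysed here, so the 45 probe sets may stand for fewer transcripts.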

How the data were processed

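Livers of 30 mice were read on 30 single-channel oligonucleotide arrays of biotin-labelled RNA. The deposited table holds 1 intensity per probe set and array; the submitters' processing notes name MAS5, which the authors used to make these values, and the table's array means of 314 to 318 and its lowest value of 50 show a common scaling and a floor, whose settings the sources used here do not give. The total signal is thus no measure of depth, and the number of arrays limits the precision. No step before the table was repeated.

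Arrays were mapped to groups by the labels, and each is 1 mouse. Members and lists were chosen with earlier results of these data known; the comparisons with vehicle chose the members, so no test of them is reported. Other contrasts were fitted with limma 3.58.1 in R 4.3.3 (lmFit and eBayes with an intensity trend, 2-sided) on log2(intensity + 50) over 7963 probe sets above 50 on at least 2 arrays, with all 8 groups in 1 fit and Benjamini-Hochberg adjustment over all probe sets tested; called means an adjusted p under 0.05. All 45 members passed this filter, as the rule ensures. These contrasts use the same arrays as the rule, so they are not independent of it. The fit was tested on simulated data. The difference between compounds in the change from 24 h to 5 days was added after the data were seen.

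All members are named by identifier; values on every array are given for the 10 with the lowest mean log2 ratio and for those called, with group means for others, except 93974_AT, 93975_AT, 92898_AT and 160306_AT, whose arrays were given after their values were seen. Alternatives changed the pseudocount, the filter, the scaling, the groups fitted, an RNA integrity covariate, the 3 arrays with low Gapdh ratios, a block for replicate number, and each array in turn.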

Additional observations from a re-analysis of the deposited data

Results flagged for a closer look

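In 26 of 315 groups of 4 arrays tested (8.25%), 1 array lay far from the other 3. The limit used marks about 1 in 20 groups by chance where groups are independent. Here the groups share arrays and the members deviate together, so the share is no measure of an excess over chance. In the vehicle group at 24 h, array 4 read 2964 for 93974_AT (the others 1132 to 1276), 4345 for 93975_AT (1994 to 2388), 3212 for 92898_AT (1377 to 1629) and 1050 for 95733_AT (963 to 975), and array 1 read 5769 for 95407_AT (4047 to 4278) and 682 for 93625_AT (787 to 791). Array 4 of CP-868388 at 5 days read high for 4 members, 926 for 96326_AT (553 to 590), 939 for 102973_F_AT (495 to 559), 397 for 92833_AT (281 to 298) and 143 for 98409_AT (84 to 92). Array 3 of that group read 316 for 101928_AT (507 to 537) and 119 for 101842_G_AT (164 to 167).

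Under CP-868388 at 24 h, array 3, one of the arrays with a low Gapdh ratio, read 201 for 95733_AT (277 to 288) and 117 for 96774_AT (181 to 194). Array 2 read 1115 for 103458_AT (716 to 738), 446 for 103029_AT (361 to 374) and 755 for 94392_F_AT (567 to 593), and array 1 read 302 for 97427_AT (211 to 221). Under CP-865520, array 4 at 24 h read 451 for 104213_AT (244 to 275) and 1361 for 102973_F_AT (1930 to 1984). At 5 days array 2 of CP-865520 read 531 for 160375_AT (782 to 816) and array 4 read 300 for 101928_AT (373 to 383). Under CP-775146 at 24 h, array 1 read 564 for 93974_AT (353 to 374) and 1110 for 100341_G_AT (1655 to 1707), array 2 read 235 for 104213_AT (155 to 166) and array 3 read 1604 for 96868_AT (1064 to 1143).

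The effect of a compound differed between the 2 times by a test of the difference itself (limma, adjusted p under 0.05), which is not independent of the rule. The log2 difference from vehicle at 5 days minus that at 24 h under CP-775146 was -2.26 in 99083_AT, -2.11 in 160375_AT, -1.75 in 92837_F_AT, -1.69 in 102973_F_AT, -0.99 in 92833_AT, -0.94 in 100339_AT, -0.83 in 93625_AT and -0.75 in 96763_AT. Under CP-868388 it was -1.41 in 99083_AT. Under CP-865520 it was -2.63 in 99083_AT, -2.23 in 160375_AT, -1.78 in 102998_AT, -1.35 in 102973_F_AT, -1.34 in 92837_F_AT, -1.23 in 100341_G_AT, -1.05 in 95733_AT, -1.02 in 100339_AT, -0.93 in 103458_AT, -0.81 in 96763_AT, -0.77 in 95660_AT, -0.68 in 92918_AT, -0.58 in 92833_AT and -0.40 in 102707_F_AT.

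The change from 24 h to 5 days also differed between compounds. CP-868388 minus CP-775146 was 1.55 in 97197_R_AT, 1.54 in 160375_AT, 1.36 in 93861_F_AT, 1.23 in 96763_AT, 1.20 in 92837_F_AT, 1.14 in 95733_AT, 1.11 in 102973_F_AT, 1.04 in 102748_AT, 1.01 in 102816_AT, 0.97 in 103357_AT, 0.88 in 93625_AT, 0.81 in 100339_AT and 0.67 in 92833_AT. CP-868388 minus CP-865520 was 1.66 in 160375_AT, 1.51 in 96326_AT, 1.38 in 102998_AT, 1.29 in 96763_AT, 1.26 in 95733_AT, 1.22 in 99083_AT, 1.20 in 100341_G_AT, 1.08 in 104213_AT, 0.90 in 102748_AT, 0.89 in 100339_AT, 0.87 in 103357_AT, 0.82 in 92736_AT, 0.80 in 92837_F_AT, 0.79 in 100095_AT, 0.77 in 102973_F_AT, 0.74 in 102816_AT and 0.47 in 99862_AT. With an RNA integrity covariate 0 and 2 of these differences between compounds were called.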

How the results depend on the processing

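Membership was 18 at a ratio of at most 0.4 and 112 at 0.6, and 31 to 61 under the other settings. CP-868388 minus CP-775146 at 24 h had 13 calls, but 5 without a filter, 0 with the integrity covariate, 1 without the 3 low-ratio arrays, 8 with the replicate block and 3 with the compared groups alone. CP-868388 minus CP-865520 at 24 h had 14, but 6 without a filter, 2 with the covariate, 1 without the 3 arrays and 2 with the compared groups alone; at 5 days it had 0, but 1 with the covariate and 2 without the 3 arrays. The CP-868388 response had 1, but 2 with a pseudocount of 1 or 100, quantile normalization, either centring, without the 3 arrays or with the compared groups alone, and the CP-865520 response had 14, but 9 without a filter. The change of CP-868388 minus CP-775146 had 13, but 8 without a filter, 8 with quantile normalization, 0 with the covariate, 2 without the 3 arrays and 5 with the compared groups alone; that of CP-868388 minus CP-865520 had 17, but 2 with the covariate and 7 without the 3 arrays. Why these counts moved was not tested. The median difference over the members for CP-868388 minus CP-775146 at 24 h moved as well. It was -0.26 over all arrays, 0.00 with the covariate and -0.07 without the 3 arrays. Other counts stayed within 1.5 times, and no single call changed direction.

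Leaving out 1 array gave a membership of 42 to 49. Called members ranged from 3 to 14 and 5 to 16 for CP-868388 minus CP-775146 and minus CP-865520 at 24 h, 0 to 5 and 0 to 1 at 5 days, and 0 to 0 for CP-775146 minus CP-865520 at both times. They ranged from 4 to 14, 1 to 3 and 9 to 16 for the CP-775146, CP-868388 and CP-865520 responses, from 3 to 8 between the vehicle groups, and from 0 to 18, 11 to 21 and 0 to 0 for the changes over time.

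Arrays of the same replicate number did not deviate together in general. Their deviations from group means had a median correlation of -0.01 (from -0.37 to 0.44), with 16 of 98 pairs above 0.1, against 75 of 294 pairs of different number. The labels do not say what the numbers stand for, and these correlations cannot decide whether mice were paired by them. Apart from the count of 8 above, the block moved no count by over 1.5 times. The pathway list alternatives were not run, since probe sets were not matched to genes. Arrays near the floor limit what 92918_AT and 98409_AT can show at 5 days.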
